A study of Rattus norvegicus with 5 samples.

Results

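The genes described here encode 6 proteins of eicosanoid synthesis, namely Ptgs1, Ptgs2, Ptgds, Pla2g4a, Alox5ap and Alox5. They were chosen by symbol among the 4736 genes named on the array, and every probe set with 1 of these symbols was taken, which gave 8 of the 8740 probe sets that are not controls. The samples were Müller cells, glia that span the retina, prepared from male Sprague-Dawley rats, and their RNA was measured on 5 rat oligonucleotide arrays. The diabetic group comprised 2 arrays of Müller cells of rats with diabetes of 6 months' duration, brought on by streptozotocin, a toxin of the pancreatic beta cell, and given a little insulin against wasting. Retinas of 12 rats were pooled for them, and the second array is labelled a technical replicate, so the 2 arrays were averaged into 1 pool. The normal group comprised 3 arrays of cells from healthy rats of the same strain and sex, each from 12 pooled rats, of which arrays 2 and 3 are labelled biological replicates. Ages were not given.

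Eicosanoids are short-lived lipid signals made from arachidonic acid. A phospholipase frees the acid from membranes, and a cyclooxygenase turns it into the precursor of all prostaglandins, which a terminal synthase such as that encoded by Ptgds then converts further. A lipoxygenase with its activating protein instead starts the leukotriene branch, so that Alox5 and Alox5ap, although on the list, do not serve prostaglandin synthesis. Ptgs1 is known as the steadily expressed cyclooxygenase and Ptgs2 as the one induced by cytokines, growth factors and synaptic activity. Retinal prostaglandins are known for effects on vessel tone and permeability, and leukotrienes are made mainly by white blood cells.

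The arrays differed in more than their group. Median deposited signal lay between 62.1 and 73.1 on the diabetic arrays and between 27.9 and 91.3 on the normal arrays, and the values were therefore quantile-normalised, floored at 20 and put on the log2 scale. Diabetic array 2 and normal array 3 shared a hybridisation day, called the processing day below, and a chip lot. Normal arrays 1 and 2 each had another combination of day and lot, and no chip lot was recorded for diabetic array 1. Actin signal at the 3′ end over that at the 5′ end, which is larger where RNA is degraded, was 2.55 on diabetic array 2 and 2.61 on normal array 1, against 1.46 to 1.76 on the other arrays. Müller cell markers were detected, and of the 9 measured, 0 were at the floor on all arrays. Glul, which encodes glutamine synthetase, was among the brightest, at 12.96 and 13.02 in diabetic cells and 12.88 to 13.53 in normal cells (log2 signal). The dimmest was Kcnj10, a potassium channel, at 4.96 and 6.22 in diabetic cells and 5.38 to 6.30 in normal cells. The preparations also held RNA of other retinal cells, since the summed signal of 6 photoreceptor genes was 12140 and 12997 in diabetic cells and 3955 to 9588 in normal cells.

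The 250 bases before the annotated start of Ptgs1 and of Ptgs2 are shown because these cyclooxygenase genes had the only probe sets whose diabetic and normal arrays did not overlap, in opposite directions. RefSeq promoter windows of rat assembly GRCr8 were matched for 5 of the 6 genes, and Alox5ap was not among them. Capitals mark letters that fit a C/EBP element (TTNNGNAA, either strand) or an E-box (CACGTG). The Ptgs1 window is chr3:39981169-39981418 and the Ptgs2 window chr13:64713813-64714062, both on the plus strand.
Ptgs1: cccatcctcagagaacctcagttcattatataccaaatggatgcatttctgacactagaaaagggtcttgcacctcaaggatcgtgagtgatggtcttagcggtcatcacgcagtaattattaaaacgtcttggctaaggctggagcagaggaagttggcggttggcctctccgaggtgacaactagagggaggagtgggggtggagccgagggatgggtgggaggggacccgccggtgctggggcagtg
Ptgs2: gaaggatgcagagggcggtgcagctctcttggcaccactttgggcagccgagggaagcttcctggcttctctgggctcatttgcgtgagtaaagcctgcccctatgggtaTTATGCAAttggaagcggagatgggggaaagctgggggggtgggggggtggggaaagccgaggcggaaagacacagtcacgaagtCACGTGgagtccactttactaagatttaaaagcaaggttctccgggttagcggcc
The Ptgs2 window held 1 C/EBP match, which began 140 bases before the start, and 1 E-box, which began 55 bases before it. These matches do not overlap each other. Among all 33465 promoter windows of this length, 37.2% held the C/EBP letters and 5.59% the E-box letters, so the first is common. Neither was found in the Ptgs1 window. Letters of a TATA box (TATAAA) and of a cyclic AMP response half-site (TGACG) were found in neither of these 2 windows, and a GC box (GGGCGG) once in that of Ptgs2, beginning 238 bases before the start. The shares of windows with these letters were 12.9%, 18.2% and 30.5%. A match describes letters only, and these arrays do not measure binding.

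Of the 8 probe sets, 6 passed the filter on dim signals, for 5 of the 6 genes. By limma 0 of these 6 passed an adjusted p of 0.05 over all 6118 tested probe sets (background 0%), and 0 had an unadjusted p under 0.05 (background 1.6%). The lowest unadjusted p among them was 0.103, and all 6 had an adjusted p of 0.9999. The largest differences, higher Ptgs1 and lower Ptgs2 signal in diabetic cells, were therefore not separated by this test from the spread between normal pools. Both diabetic arrays were above every normal array for 1 of the 6, Ptgs1 (background 9.53%), and below all of them for 1, a probe set of Ptgs2 (background 7.01%). Counts of 1 in 6 do not set the list apart from these backgrounds. The median log2 difference was -0.17 over the 6 probe sets, of which 1 was higher and 5 were lower in diabetic cells, beside a median of -0.01 over all tested probe sets. There was 1 diabetic pool, and an exact permutation test of 1 pool against 3 cannot give a p below 0.25.

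**Figure D1:**
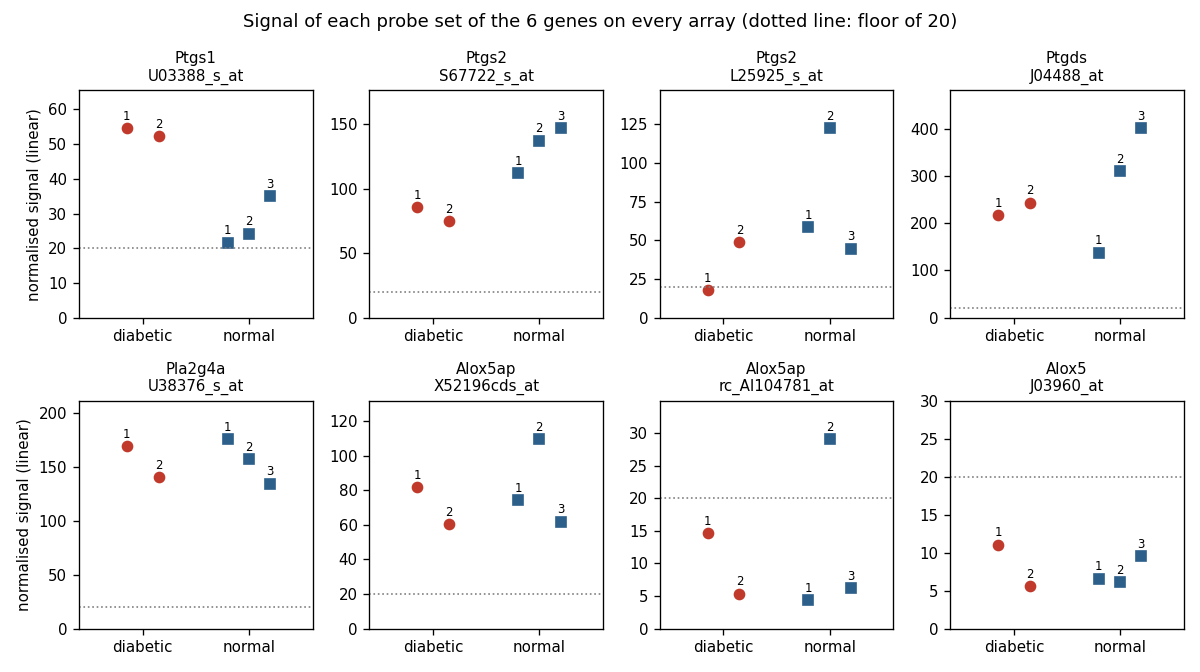
Normalised signal, on a linear axis from 0, of all 8 probe sets on the 2 diabetic arrays (circles) and the 3 normal arrays (squares), numbered by array; the dotted line is the floor of 20. Ptgs1 lay at 52.2 and 54.6 on the diabetic arrays, above 35.1, the highest normal array, while the Alox5 probe set stayed below the floor on all 5 arrays.

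Release of arachidonic acid was represented by Pla2g4a, the calcium-dependent cytosolic phospholipase that prefers arachidonate. Its probe set U38376_s_at had a normalised signal of 169.6 and 140.6 on diabetic arrays 1 and 2, against 176.1, 157.2 and 134.7 on normal arrays 1 to 3. The groups overlapped, and diabetic array 2 lay among the lower normal arrays. The log2 difference was -0.01 (SE 0.36, limma), with a 95% interval of -0.90 to 0.88, and values of either sign within it cannot be told apart here. Within the shared processing day the difference was 0.06. In the rat assembly Pla2g4a and Ptgs2 are neighbours, with 0 annotated protein-coding genes between them.

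Ptgs1, the steadily expressed cyclooxygenase, had a signal about 2 times as high in diabetic cells. Probe set U03388_s_at had a normalised signal of 54.6 and 52.2 on the diabetic arrays, against 21.6, 24.2 and 35.1 on the normal arrays. The groups did not overlap, with both diabetic arrays the higher, and normal array 1 was just above the floor. The same held before any scaling, at 57.7 and 64.9 in diabetic cells and 16.9, 11.6 and 51.4 in normal cells (deposited signal). On the log2 scale the mean was 5.74 in the diabetic pool and 4.72 ± 0.36 in normal cells (SD, n = 3). The log2 difference was 1.02 (SE 0.52, limma), a ratio of 2.02, with a 95% interval of -0.29 to 2.32 and an unadjusted p of 0.103. The diabetic arrays differed from each other by only 0.06. Of all tested probe sets, 2.09% had a higher difference. Between the arrays of the shared day, diabetic array 2 and normal array 3, the difference was 0.57. The probe set is a dim one: its mean was 5.23, where the lowest mean kept by the filter was 4.68, and a filter that drops the dimmest 50% removes it.

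Ptgs1 is known to be expressed in microglia, and markers of microglia and other leukocytes were brighter on the same arrays. Of the 16 markers listed, 11 were measured, and both diabetic arrays were above every normal array for 7 of them (background 9.53%), namely Aif1, Coro1a, Ctss, Cd74, Lyz2, C1qb and Fcgr2b. The summed signal of the 11 was 2269 and 2598 on the diabetic arrays and 1484 to 1860 on the normal arrays. Among the normal arrays this sum was highest on array 2. The mean log2 signal of the 11 was instead highest on array 3, at 6.11 against 5.81 and 5.96 on arrays 1 and 2. Ptgs1 was likewise highest on normal array 3. None of the 11 markers was at the floor on all arrays. The pattern was not particular to this list, since both diabetic arrays were also above every normal array for 4 of 6 photoreceptor genes. The part of these cells in the Ptgs1 difference was not tested. In such bulk RNA, more cells of a type and more RNA per cell cannot be told apart.

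Ptgs2, the inducible cyclooxygenase, was measured by 2 probe sets, both with lower means in diabetic cells. Probe set S67722_s_at had a normalised signal of 85.7 and 74.7 on the diabetic arrays, against 112.2, 137.3 and 146.8 on the normal arrays. Both diabetic arrays lay below all normal arrays. Its log2 mean was 6.32 in the diabetic pool and 7.04 ± 0.20 in normal cells (SD, n = 3), a difference of -0.71 (SE 0.39, limma) with a 95% interval of -1.70 to 0.27. The ratio was 0.61 and the unadjusted limma p was 0.124, while 3.73% of all tested probe sets had a lower difference. Between the arrays of the shared day the difference was -0.97.

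Probe set L25925_s_at of Ptgs2 had a normalised signal of 18.0 and 48.9 on the diabetic arrays, against 58.3, 122.3 and 44.6 on the normal arrays. Diabetic array 1 was below the floor, and diabetic array 2 lay above normal array 3, so the groups overlapped. The log2 difference was -1.13 (SE 0.69, limma), with a 95% interval of -2.85 to 0.60. The diabetic arrays differed from each other by 1.29, more than the difference between the groups. Within the shared day the difference had the other sign, 0.13, and without diabetic array 1 it was -0.48. The deposited, unscaled values gave no separation for either probe set: S67722_s_at was at 91.7 and 91.6 in diabetic cells and at 72.4, 64.7 and 240.3 in normal cells. Its lower values in diabetic cells therefore rest on the scaling between arrays, under which the log2 difference was -0.71 with quantile normalisation and -0.70 with a common median, against -0.18 unscaled. Unscaled, however, the median difference of all tested probe sets was 0.47, and relative to that median Ptgs2 was lower there too.

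Ptgs2 is itself an immediate early gene in neurons, transcribed within minutes of a stimulus. Of 17 other immediate early genes listed, 14 were measured, and 14 had a lower mean in diabetic cells, where 3132 of all 6118 tested probe sets were lower. Both diabetic arrays lay below all normal arrays for 7 (background 7.01%), namely Fos, Junb, Nr4a1, Dusp1, Klf4, Zfp36 and Arc. The summed signal of the 14 was 10790 and 10640 on the diabetic arrays and 11341, 20574 and 16495 on the normal arrays. Normal array 1 was close to the diabetic arrays for this list, and it was also the lowest normal array for Ptgs2 probe set S67722_s_at. The list was highest on normal array 2, however, and S67722_s_at on normal array 3. For L25925_s_at the lowest normal array was array 3 (44.6), below array 1 (58.3). None of the 14 was at the floor on all arrays, and their part in the Ptgs2 difference was not tested.

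**Figure D2:**
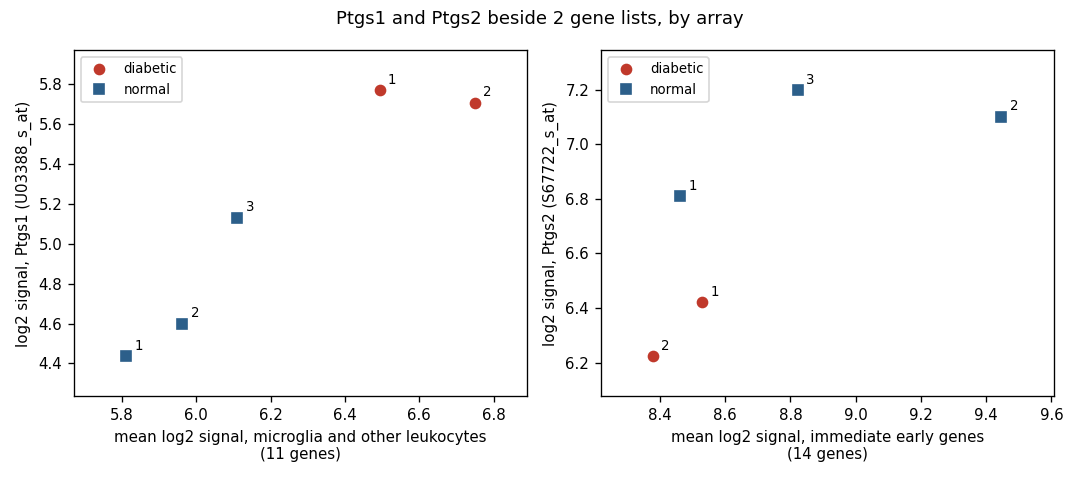
Log2 signal of Ptgs1 against the mean log2 signal of 11 microglial and leukocyte markers (left) and of Ptgs2 probe set S67722_s_at against that of 14 immediate early genes (right), 1 point per array, circles diabetic and squares normal, numbered by array; both axes are log2 and do not start at 0. Diabetic arrays lie at the upper right on the left and at the lower left on the right, where normal array 1 has a list mean (8.46) between those of the diabetic arrays (8.53 and 8.38).

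Ptgds, which encodes the lipocalin-type synthase of prostaglandin D and is also a secreted carrier of lipophilic molecules, varied more between normal pools than between groups. Probe set J04488_at had a normalised signal of 217.5 and 243.5 on the diabetic arrays, against 137.3, 309.7 and 400.5 on the normal arrays. Both diabetic arrays lay between normal array 1 and normal array 2. The log2 mean was 7.85 in the diabetic pool and 8.01 ± 0.81 in normal cells (SD, n = 3), a difference of -0.16 (SE 0.63, limma) with a 95% interval of -1.72 to 1.40. Within the shared day it was -0.72, and without normal array 3 it was 0.15. On the 3 arrays with an actin ratio under 2, diabetic array 1 and normal arrays 2 and 3, it was -0.72. The pigment epithelium is known to express Ptgds strongly. Of 12 markers listed for pigment epithelium and choroid 4 were measured, and Rpe65, the visual cycle isomerase that defines this epithelium, was at the floor on all 5 arrays. The summed signal of the 4 was 248 and 287 on the diabetic arrays and 130 to 173 on the normal arrays. On the diabetic arrays Ttr, the thyroid hormone carrier transthyretin, made up most of it. Ttr was the only marker of the 4 with a higher mean in diabetic cells, by 1.35 on the log2 scale. The other 2 markers, Krt18 and Krt8, differed by -0.15 and -0.07.

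On the leukotriene branch, Alox5ap encodes the membrane protein that presents arachidonate to the 5-lipoxygenase encoded by Alox5. Alox5ap probe set X52196cds_at had a normalised signal of 81.9 and 60.3 on the diabetic arrays, against 74.3, 109.5 and 61.9 on the normal arrays. The groups overlapped, and the log2 difference was -0.18 (SE 0.51, limma) with a 95% interval of -1.46 to 1.10. Without normal array 2, the highest array, the difference was 0.05, and within the shared day it was -0.04. Its other probe set, rc_AI104781_at, was above the floor on normal array 2 alone, at 29.1, and below it on the other 4 arrays, and was too dim to be tested. Normal array 2 was thus the highest array for both Alox5ap probe sets. The summed leukocyte markers were 2269 and 2598 on the diabetic arrays, against 1484, 1860 and 1704 on normal arrays 1 to 3. By this sum array 2 was the highest of the normal arrays there too. By the mean log2 signal of the same markers it was array 3 (6.11), where X52196cds_at was the lowest of the normal arrays. That mean was higher still on the diabetic arrays, at 6.49 and 6.75, where X52196cds_at was not higher. The part of leukocytes in the Alox5ap signal was not tested.

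Alox5 was not measurable. Its probe set J03960_at had a normalised signal of 11.1 and 5.6 on the diabetic arrays, against 6.6, 6.1 and 9.5 on the normal arrays. All 5 values were below the floor, so no fold was computed and no level can be given.

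**Figure D3:**
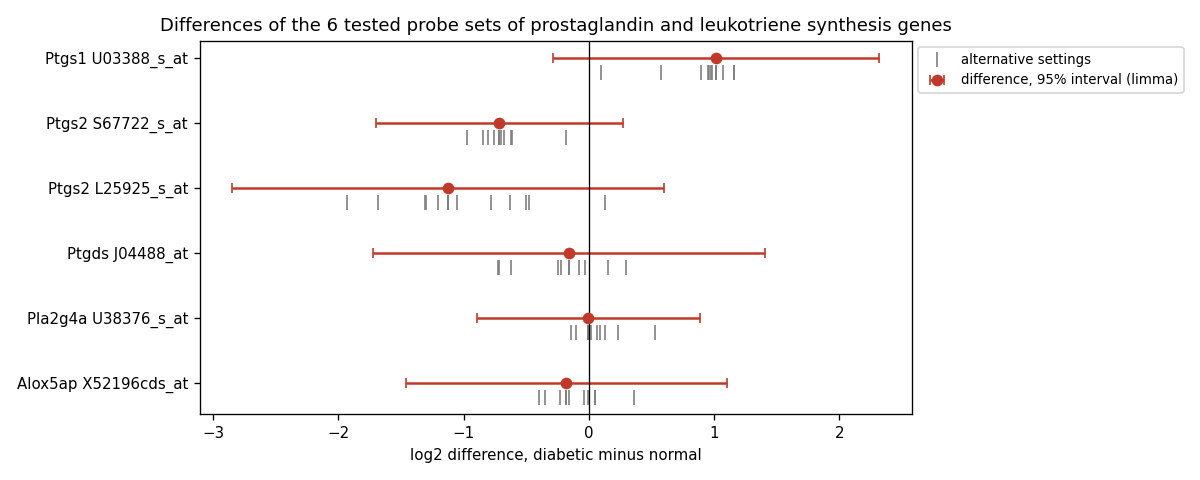
Log2 difference, diabetic minus normal, of the 6 tested probe sets with limma's 95% interval (circles and bars), and below each the values under the alternative settings (ticks). All 6 intervals include 0; the ticks lie to the right of 0 throughout for Ptgs1 and to the left throughout for Ptgs2 probe set S67722_s_at, and cross 0 for the other 4.

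The genes most like each of the 5 measured genes were those with the smallest root mean square difference of log2 signal, centred per probe set over the 5 arrays. For Ptgs1 these were Fzd1, a Wnt receptor, at 0.11 and Pcsk2, a prohormone convertase, at 0.13. For Ptgs2 they were Csnk1d, a casein kinase, at 0.06 and Patj, a tight junction protein, at 0.07. For Ptgds they were Aimp2 and Hspa4, at 0.10 and 0.11. For Pla2g4a, which varied little, they were Tshr at 0.03 and Mfap3 at 0.03, and for Alox5ap Dnaja1 at 0.05 and Exoc3 at 0.06. These are descriptions over 5 arrays, picked from all tested probe sets with 1 symbol.

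Of 85 other genes of eicosanoid metabolism listed, 56 had a probe set and 48 a tested one. Counting each gene at its brightest tested probe set, by limma 0 of the 48 passed after adjustment and 0 had an unadjusted p under 0.05. A dimmer probe set of Cyp2c23 had an unadjusted limma p of 0.0452. All 3 of its normal arrays were at the floor and had no spread. That p thus rests on the spread limma borrows from other probe sets, and only the diabetic arrays carried the probe set past the filter. Of the 48 genes 30 were higher and 18 lower in diabetic cells, with a median log2 difference of 0.05. Both diabetic arrays were above every normal array for 5 (10.4%, background 9.53%) and below all of them for 2 (4.17%, background 7.01%), shares near those of all tested probe sets. The 5 were Anxa1, Plaa, Acsl1, Ptgfrn and Abcc1, and the 2 were Ephx2 and Plcb3.

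Among 10 tested genes that free arachidonate or regulate its release, 5 were higher and 5 lower. Anxa1, annexin A1, known to inhibit phospholipase A2 activity, had a log2 signal of 5.90 and 5.75 on the diabetic arrays, against 4.38, 4.92 and 5.03 on the normal arrays. The difference was 1.05 (SE 0.52, limma), and its other tested probe set gave 1.02 with the same lack of overlap. On that other probe set normal array 2 was at the floor. The differences resembled that of Ptgs1 in size. Plaa, the phospholipase A2-activating protein, differed by 0.88 (SE 0.68), with normal array 2 just above the floor. Pla2g5, a secreted phospholipase, differed by -0.42 (SE 0.46). Plcb3, a phospholipase C named only for its lack of overlap after its values were seen, differed by -0.37 (SE 0.39). Pla2g2a, another secreted phospholipase, was at the floor on all arrays. Among 4 tested genes of arachidonate supply, Acsl1, a long-chain acyl-CoA synthetase, differed by 0.62 (SE 0.43), or by 0.38 and -0.18 on its other tested probe sets. Acsl3 differed by -0.19 (SE 0.22) and Acsl4, the synthetase that prefers arachidonate, by -0.08 (SE 0.45), and their other tested probe sets by -0.51 and -0.22.

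Downstream of the cyclooxygenases, 4 of 8 tested prostanoid synthases and related reductases and transferases were higher and 4 lower. Gstm2, a glutathione transferase, differed by 0.47 (SE 0.56), or by 1.06 on its other tested probe set, where both diabetic arrays were above every normal array. Differences were -0.39 (SE 0.48) for the reductase gene Akr1c14 and 0.17 (SE 0.25) for Akr1b1, aldose reductase, whose other tested probe set gave -0.05. The prostaglandin E synthases Ptges, Ptges2 and Ptges3 had no probe set with a single symbol and were not analysed here. Of 5 tested lipoxygenase and leukotriene enzymes 5 were higher, with a median log2 difference of 0.35, where 48.8% of all tested probe sets were higher. The smallest of these differences was 0.001, and for 0 of the 5 were both diabetic arrays above every normal array. Lta4h, 1 of the 5, differed by 0.18 on its brightest probe set but by -0.02 on its other tested one. Mgst3, a microsomal glutathione transferase able to make leukotriene C in vitro, differed by 0.71 (SE 0.29), the lowest unadjusted limma p of the 48 brightest probe sets, at 0.0525. That rested on diabetic array 1, at 9.65, since diabetic array 2, at 8.52, lay below normal array 3, at 8.60. Alox15, a lipoxygenase, differed by 0.36 (SE 0.82) and Ggt5, a glutamyl transferase that cleaves leukotriene C, by 0.35 (SE 0.77).

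Of 6 tested receptors 4 were higher and 2 lower, with log2 differences of -0.25 to 0.31. The highest was Ptgfrn, a regulator of the prostaglandin F receptor, at 0.31 (SE 0.43), and the lowest Tbxa2r, the thromboxane receptor, at -0.25 (SE 0.34). Ptger3, a receptor for prostaglandin E, differed by -0.13 (SE 0.44), and the related receptor Ptger4 was at the floor on all arrays. Among 4 tested genes of breakdown and transport, Abcc1, an export pump that carries leukotriene C, had a log2 signal of 6.18 and 6.98 on the diabetic arrays, against 5.27, 4.32 and 6.04 on the normal arrays. Its difference was 1.37 (SE 0.75), the largest of the 48, with normal array 2 at the floor. The other Abcc1 probe set was above the floor on normal array 3 alone, at 5.06, and was too dim to be tested. Slc22a6, an organic anion transporter, differed by 0.12 (SE 0.63) and Slco2a1, the prostaglandin transporter, by -0.08 (SE 0.46). Of 11 tested cytochrome P450 and epoxide hydrolase genes 7 were higher and 4 lower. Ephx2, the soluble epoxide hydrolase, was at 7.73 and 7.71 on the diabetic arrays, against 9.11, 8.45 and 7.77 on the normal arrays (log2 signal), a difference of -0.73 (SE 0.53), or of -0.36 on each of its other tested probe sets. The lack of overlap there was narrow, since normal array 3 lay just above the diabetic arrays. Cyp2c23, an epoxygenase of rat kidney, differed by 0.62 (SE 1.11) on its brightest probe set and by -0.10 on another. Its probe set U04733_s_at was at 5.32 and 5.64 on the diabetic arrays and at the floor on all 3 normal arrays (log2 signal), so it was at least 2.23-fold higher. The floored log2 difference was 1.16 (SE 0.45), an SE that holds no spread of its own normal arrays. Cyp2c11, a male-specific enzyme of rat liver, differed by -0.56 (SE 0.67).

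**Figure D4:**
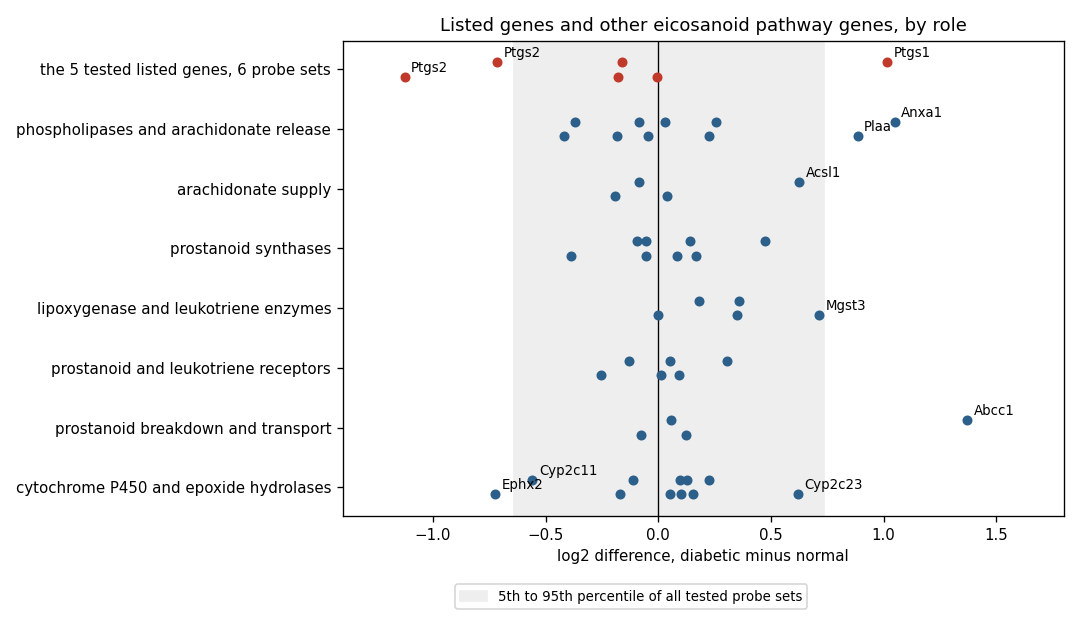
Log2 difference, diabetic minus normal, of the 6 tested probe sets of the listed genes (top row) and of 48 other eicosanoid pathway genes by role, 1 point per gene at its brightest tested probe set; the grey band spans the 5th to the 95th percentile of all tested probe sets, -0.64 to 0.74, and genes far from 0 are named. Ptgs1, Anxa1, Plaa and Abcc1 lie to the right of the band, both Ptgs2 probe sets and Ephx2 to its left.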

How the data were processed

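RNA was measured on RG_U34A arrays (Affymetrix), as the experiment records state. The deposited values hold 1 linear intensity for each probe set on each array; how the authors summarised and scaled them is not stated in any source used. Probe sets were named from GEO's platform annotation, with 6985 matched through Entrez IDs to RefSeq (GRCr8) and 0 symbols changed. The genes and lists were chosen with earlier results of these data known.

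All 8799 probe sets were quantile-normalised, raised to a floor of 20 (the rule took the 20th percentile if larger) and put on the log2 scale. Without 59 controls and the 30% dimmest probe sets by mean of both groups, 6118 remained. The averaged diabetic pool was compared with 3 normal pools by limma 3.58.1 (R 4.3.3; lmFit, eBayes with trend), with two-sided p-values adjusted by Benjamini-Hochberg, at 0.05. The spread came from the normal pools alone, with 2 residual and 3.54 prior degrees of freedom, and was assumed to hold for the diabetic pool. Folds understate changes of dim genes. A gene other than the 6 was read from its brightest tested probe set, and the 3 with the largest difference in each role were named. Alternatives changed the scaling, floor, filter, variance model, handling of the repeat and arrays used. In simulated data of 6118 probe sets, 1 pool against 3, 0% of changes of 2-fold were called, 0.695% at 4-fold and 8.81% at 8-fold. The simulation changed 200 probe sets, drew Gaussian noise with variances from limma's fitted prior and had no floor. These rates describe that model and are not measured on these arrays. Precision is limited by the number of arrays. Figures were drawn with matplotlib 3.10.9.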

Additional observations from a re-analysis of the deposited data

How the results depend on the processing

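Ptgs1 was higher in diabetic cells under all 14 alternatives that gave a value, at 0.095 to 1.16 on the log2 scale, and Ptgs2 probe set S67722_s_at lower under all 15, at -0.97 to -0.18. Much of this agreement was fixed in advance. Changing the filter, the variance model or the handling of the repeat does not alter these differences. Since neither probe set had overlapping arrays after normalisation, leaving arrays out could hardly change the sign. Agreement across those settings is therefore no added support. The only adjusted limma p under 0.05 was that of Ptgs1 with the floor at 50 (difference 0.095, adjusted p = 0.0203, within a range of 0.0203 to 1), where all 3 normal arrays lie at the floor and have no spread. With that floor 147 of all probe sets were called, 138 of them with every normal array at the floor. The 147 included 1 of the 8 probe sets and 2 of the other pathway genes. Without the filter 170 were called, 162 of them so, and with 5 arrays as separate samples, which counts the technical repeat as independent, 13, in neither case a probe set of the 6 genes. Unadjusted p-values under 0.05 numbered 98, and 34 to 538 under the alternatives.

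Unscaled, where all tested probe sets had a median of 0.47, the differences of Alox5ap, Pla2g4a and Ptgds changed sign, to 0.36, 0.53 and 0.30. Pla2g4a was also at 0.013 with a common median. On the 3 arrays of low actin ratio Pla2g4a was at 0.23, Ptgds at -0.72, Alox5ap at -0.01, Ptgs1 at 0.95 and the Ptgs2 probe sets at -0.76 and -1.93. Leaving out each array gave -0.40 to 0.052 for Alox5ap, -0.14 to 0.13 for Pla2g4a, -0.63 to 0.15 for Ptgds, 0.89 to 1.16 for Ptgs1, -0.84 to -0.61 for Ptgs2 probe set S67722_s_at and -1.69 to -0.48 for L25925_s_at. The cause was not tested. Within the shared day Ptgs1 was at 0.57 and the Ptgs2 probe sets at -0.97 and 0.13. The count of probe sets with every diabetic array above every normal array was 1, but 0 with the dimmest 50% left out, where Ptgs1 is not tested, and 2 on the 3 arrays of low actin ratio. The count below was 1, but 0 unscaled, 1 to 2 without single arrays and 3 on those 3 arrays (both Ptgs2 probe sets and Ptgds), where fewer arrays are compared. No paired analysis was possible, since the second diabetic array is labelled a technical replicate and both diabetic arrays were averaged into 1 pool.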
